A study of Mus musculus with 5 samples.

Results

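The 8 genes described here encode surface proteins at which antibodies, T cell engagers or radioligands for small cell lung cancer are aimed: Dll3, Sez6, Cd276, Ncam1, Cd24a, Cd47, Epcam and Sstr2. They were picked by gene name from 54532 genes in a table of read counts, and each had 1 row. The table covers 5 mouse small cell lung tumours, of which 3 were labelled LSN and 2 vehicle. LSN is the label given to an inhibitor of Aurora A kinase, a kinase of the mitotic spindle, its dose and schedule not given in the sources used here. Every tumour, vehicle included, carried the genotype written RPP, whose letters the labels do not expand, and the age of the mice and whether each tumour came from a separate animal are not given. The design text speaks of primary tumour cells from engineered mice, whereas the sample labels speak of flash-frozen lung tumour, so the samples are treated here as pieces of tissue.

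Small cell lung cancer is a neuroendocrine carcinoma, and many of its surface targets are genes of the neuroendocrine or neuronal programme. DLL3 is an inhibitory Notch ligand of neuroendocrine cells. SEZ6 is a neuronal membrane protein, SSTR2 a receptor for the peptide hormone somatostatin, and NCAM1 the cell adhesion molecule stained by pathologists to recognise neuroendocrine tumours. EPCAM is an adhesion protein of epithelia. CD24 and CD47 restrain phagocytes through receptors of the Siglec and SIRP families, and CD276, also called B7-H3, is a member of the B7 family of immune regulators.

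The promoters of Dll3, Epcam and Sstr2 are shown because these genes differed by more than 3-fold between tumours and have an entry in the RefSeq promoter table, build GRCm38.p6, in which 5 of the 8 genes were matched. Each window holds 250 bases before and 50 bases after a RefSeq start, read 5′ to 3′ on the strand of the gene. The windows lie at chr7:28301736-28302035 on the minus strand, chr17:87635729-87636028 on the plus strand and chr11:113619077-113619376 on the plus strand. Capitals mark matches, on either strand, to the E-box CAGCTG of basic helix-loop-helix factors, to the E-box CACCTG or its reverse complement CAGGTG that ZEB and SNAI proteins bind, and to the cAMP response element TGACGTCA. These letters were chosen after the sequences had been read, and no matches overlap.
Dll3: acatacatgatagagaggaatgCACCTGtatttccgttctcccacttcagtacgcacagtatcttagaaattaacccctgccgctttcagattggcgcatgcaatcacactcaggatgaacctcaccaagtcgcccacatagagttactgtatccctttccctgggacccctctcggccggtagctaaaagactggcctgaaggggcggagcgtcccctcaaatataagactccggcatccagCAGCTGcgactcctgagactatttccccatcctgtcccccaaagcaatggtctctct
Epcam: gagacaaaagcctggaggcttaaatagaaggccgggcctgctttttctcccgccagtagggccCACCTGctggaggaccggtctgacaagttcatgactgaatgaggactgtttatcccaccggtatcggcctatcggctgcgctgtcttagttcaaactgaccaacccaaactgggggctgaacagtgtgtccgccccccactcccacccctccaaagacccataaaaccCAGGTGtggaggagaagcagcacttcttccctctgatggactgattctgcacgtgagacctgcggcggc
Sstr2: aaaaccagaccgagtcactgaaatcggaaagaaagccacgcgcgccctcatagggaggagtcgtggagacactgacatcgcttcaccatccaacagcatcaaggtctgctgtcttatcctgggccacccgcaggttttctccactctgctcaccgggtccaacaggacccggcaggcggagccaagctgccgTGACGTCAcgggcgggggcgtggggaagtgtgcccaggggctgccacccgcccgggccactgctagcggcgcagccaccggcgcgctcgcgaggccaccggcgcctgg
CAGCTG began 7 bases before the start of Dll3, and 16.3% of all 32851 promoter windows hold that motif. The whole Dll3 window lies inside the deposited bounds of the gene, 28293553 to 28302238, so its RefSeq start is downstream of the 5′ end of that gene model. CACCTG or CAGGTG began 228 bases before the start of Dll3 and 187 and 19 bases before that of Epcam, and 20.2% of the windows hold it. TGACGTCA began 58 bases before the start of Sstr2, and 1.79% of the windows hold it. The 3 windows of Cd276 and Cd47 held none of these letters. A match is only a description of the letters in these windows.

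Total counts were 17439049 to 19766604 per tumour, and each of the 8 genes had at least 301 counts in every tumour, so counting error was small beside the differences between tumours. Values below are CPM, read counts scaled to library size with the TMM correction for library composition. Levels of different genes are compared only as TPM, which also divides by gene length. The labelled tumour type was checked with neuroendocrine markers, which were abundant: Chga was at 172 to 1475 CPM and Insm1 at 445 to 822 CPM over the 5 tumours. Of the 12 neuroendocrine markers only Scgn stayed near 0. Markers of normal lung epithelium were present in every tumour. They summed to 367 to 1969 CPM in LSN tumours and to 6960 and 8713 CPM in vehicle tumours. Every LSN tumour lay below both vehicle tumours for 10 of 12 of these genes, beside 10.4% of all genes tested. The same held for 9 of 10 endothelial markers. In bulk tissue, fewer cells of a type and less RNA per cell cannot be told apart, and the part of these cells in the results below was not tested.

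The fit across 17906 genes asked which transcripts differed between LSN and vehicle tumours, and it called none of the 8 surface targets. By edgeR's quasi-likelihood test, the background was 0% of genes at a Benjamini-Hochberg adjusted p under 0.05 and 4.27% at an unadjusted p under 0.05, and 0 of the 8 genes reached either. DESeq2, the tool that the labels name, called 0.539% of the genes it tested and none of the 8, the adjusted p being 0.9998 for each. All LSN tumours lay above both vehicle tumours for 8.48% of the genes tested and below both for 10.4%. For all 8 targets the groups overlapped. Their log2 fold changes, LSN over vehicle, were above 0 for 6 genes and below 0 for 2, with a median of 0.49 beside a median of 0.03 over all genes tested. The 95% intervals of all 8 included 0. The widest, for Epcam, allowed anything from 0.236-fold to 11.0-fold, and the narrowest, for Cd47, from 0.499-fold to 1.56-fold.

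**Figure D1:**
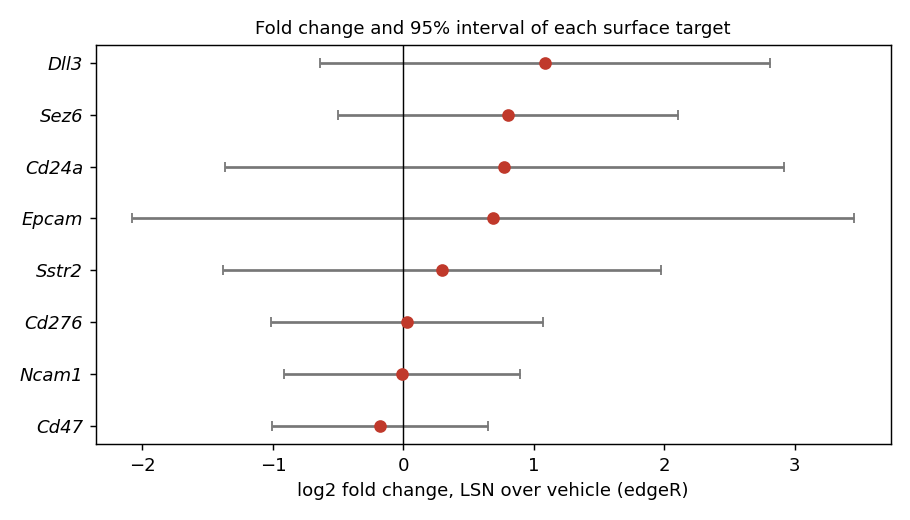
Points are the edgeR log2 fold changes of the 8 genes, LSN (n = 3) over vehicle (n = 2), and bars are 95% intervals. Dll3 has the largest estimate, 1.09, and every interval crosses 0.

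Dll3 (chromosome 7, 28293553 to 28302238, minus strand, build mm10) had the largest average difference. Its values were 84.3, 97.9 and 31.2 CPM in LSN replicates 1, 2 and 3, against 50.2 and 16.8 CPM in vehicle replicates 1 and 2. LSN replicates 1 and 2 lay above both vehicle tumours, LSN replicate 3 lay between them, and vehicle replicate 2 was lowest. It averaged 71.1 ± 35.2 CPM in LSN tumours (SD, n = 3) and 33.5 ± 23.6 CPM in vehicle tumours (SD, n = 2), a log2 fold change of 1.09 ± 0.69 (SE; edgeR, unadjusted p = 0.17, adjusted p = 0.9996). The estimate was 2.09 without vehicle replicate 1 and 0.50 without vehicle replicate 2, where the remaining vehicle tumour is assumed to vary like the LSN tumours.

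By the least root mean square difference in centred log2 CPM over the 5 tumours, among 11079 genes of at least 10 CPM, the profiles nearest to Dll3 were the metalloprotease gene Tll1 (0.16), Ephb6 (0.20) and the potassium channel gene Kcnk3 (0.21). Ephb6, an ephrin receptor, was at 83.4, 83.3 and 34.1 CPM in LSN tumours, against 47.5 and 21.7 CPM in vehicle tumours.

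Of the 12 listed genes of the Notch pathway around Dll3, 0 passed the adjusted threshold in either direction, 4 had a log2 fold change above 0 and 8 below, and the median was -0.64. Notch1, a receptor, was the 1 gene of this list at an unadjusted p under 0.05 by edgeR. It was at 13.9, 6.91 and 4.13 CPM in LSN tumours, against 22.7 and 23.2 CPM in vehicle tumours. Jag1, a ligand, Hes1, a target gene, and Rest, a repressor of neuronal genes, were also lower in every LSN tumour, so that 4 of 12 genes lay below, beside 10.4% of all genes. These 3 genes were picked once their values were known. Notch1 is also expressed in endothelium, whose markers were lower in the same tumours, and their part was not tested.

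Sez6 (chromosome 11, 77930800 to 77979048) varied little among vehicle tumours and widely among LSN tumours. It had 206, 104 and 348 CPM in LSN replicates 1, 2 and 3, against 136 and 116 CPM in vehicle replicates 1 and 2. LSN replicates 1 and 3 were above both vehicle tumours, and LSN replicate 2 was the lowest of all. The log2 fold change was 0.80 ± 0.52 (SE; edgeR, adjusted p = 0.9996) and was 0.30 without LSN replicate 3. Without LSN replicate 2 it was 1.13 (edgeR, unadjusted p = 0.0232, adjusted p = 0.9999), the 1 unadjusted p under 0.05 for any of the 8 genes under any setting.

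The rest of chromosome 11 was also higher in the LSN group: the median log2 fold change of its 1422 tested genes was 0.34, beside 0.03 for all genes, and that of the 157 genes within 5 Mb of Sez6 was 0.35. For the 139 genes within 5 Mb of Sstr2, on the same chromosome, it was 0.34. Genes of chromosome 11 had median log2 deviations from their own mean over the 5 tumours of 0.20, -0.065 and 0.25 in LSN replicates 1, 2 and 3, against -0.17 and -0.16 in vehicle replicates 1 and 2. LSN replicate 2, the tumour with the least Sez6, was the LSN tumour with the lowest chromosome 11 median. Deviations of Sez6 itself were larger, from -0.65 in LSN replicate 2 to 1.09 in LSN replicate 3. The part of the chromosome in the values of Sez6 and Sstr2 was not tested. Of the SEZ6 family and its proteases, 4 genes were tested and 0 passed in either direction, with a median of -0.17. Sez6l2, a close relative of Sez6, was at 168, 216 and 167 CPM in LSN tumours, against 151 and 102 CPM in vehicle tumours, above both in every LSN tumour (edgeR, adjusted p = 0.9996). Bace1, the protease that cuts SEZ6, was at 77.9, 41.3 and 95.0 CPM in LSN tumours, against 47.8 and 59.2 CPM in vehicle tumours, lowest in LSN replicate 2 as Sez6 was. Bace2, its relative, had a log2 fold change of -0.96.

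Sstr2 (chromosome 11, 113619342 to 113626028) was high in 1 tumour of each group. It was at 121, 43.8 and 32.8 CPM in LSN replicates 1, 2 and 3, against 35.1 and 72.1 CPM in vehicle replicates 1 and 2. LSN replicate 1 was highest, vehicle replicate 2 came next, and the other 3 tumours lay close together. The log2 fold change was 0.30 ± 0.67 (SE; edgeR, adjusted p = 0.9996), and it turned to -0.49 without LSN replicate 1 and to -0.12 without vehicle replicate 1. Sstr2 lies on the opposite strand of the gene Slc39a11 but shares no exon with it.

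Other receptors of the somatostatin system were mostly low, and of 5 tested genes 0 passed in either direction, with a median log2 fold change of 1.03. Sstr5 was at 3.42, 17.1 and 39.9 CPM in LSN tumours, against 14.3 and 5.53 CPM in vehicle tumours, so that the 2 tumours with the most Sstr2 had the least Sstr5. Sstr1 and Sstr4 reached at most 7.64 and 8.23 CPM. Cort, which encodes the related peptide cortistatin, was at 0.482 to 0.953 CPM in LSN tumours and at 0.215 and 0.447 CPM in vehicle tumours. The hormone gene Sst itself did not pass the count filter and had at most 0.108 CPM, below the floor of 3 counts in every tumour. Sstr3 was at most 1.94 CPM and, like Sst, was picked once its values were known.

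Ncam1 (chromosome 9, 49502136 to 49798925, minus strand) was among the steadiest of the 8 genes. It was at 379, 199 and 346 CPM in LSN replicates 1, 2 and 3, against 249 and 372 CPM in vehicle replicates 1 and 2. LSN replicate 2 was lowest, and the vehicle values fell inside the range of the LSN values. The log2 fold change was -0.01 ± 0.36 (SE; edgeR, adjusted p = 0.9996), which without 1 tumour ranged from -0.26 to 0.31. Markers of other cells known to carry NCAM1 were near 0: Ncr1 of natural killer cells was at most 0.223 CPM, and Sox10 of Schwann cells at most 0.214 CPM. The counts of Ncam1 do not separate its isoforms, and the antisense gene Gm11149, which overlaps its exons, had 2 to 8 counts.

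Among NCAM relatives and the enzymes of polysialylation, 8 genes were tested, 0 passed in either direction, and the median log2 fold change was 0.00091. Nfasc was at 112, 108 and 91.9 CPM in LSN tumours, against 86.0 and 67.0 CPM in vehicle tumours, above both in each LSN tumour. Chl1 and Nrcam, adhesion molecules of the same superfamily, overlapped between the groups, with log2 fold changes of 0.03 and 0.30. St8sia2, which adds polysialic acid to NCAM1, differed widely between tumours: 119, 1.66 and 73.3 CPM in LSN tumours, against 32.0 and 126 CPM in vehicle tumours. St8sia4, the second such enzyme, was at 42.0, 15.2 and 49.9 CPM, against 22.9 and 42.6 CPM. Ncam1, St8sia2, St8sia4 and L1cam were thus all lowest in LSN replicate 2 and second lowest in vehicle replicate 1. St8sia2, St8sia4 and L1cam were picked once their values were known.

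**Figure D2:**
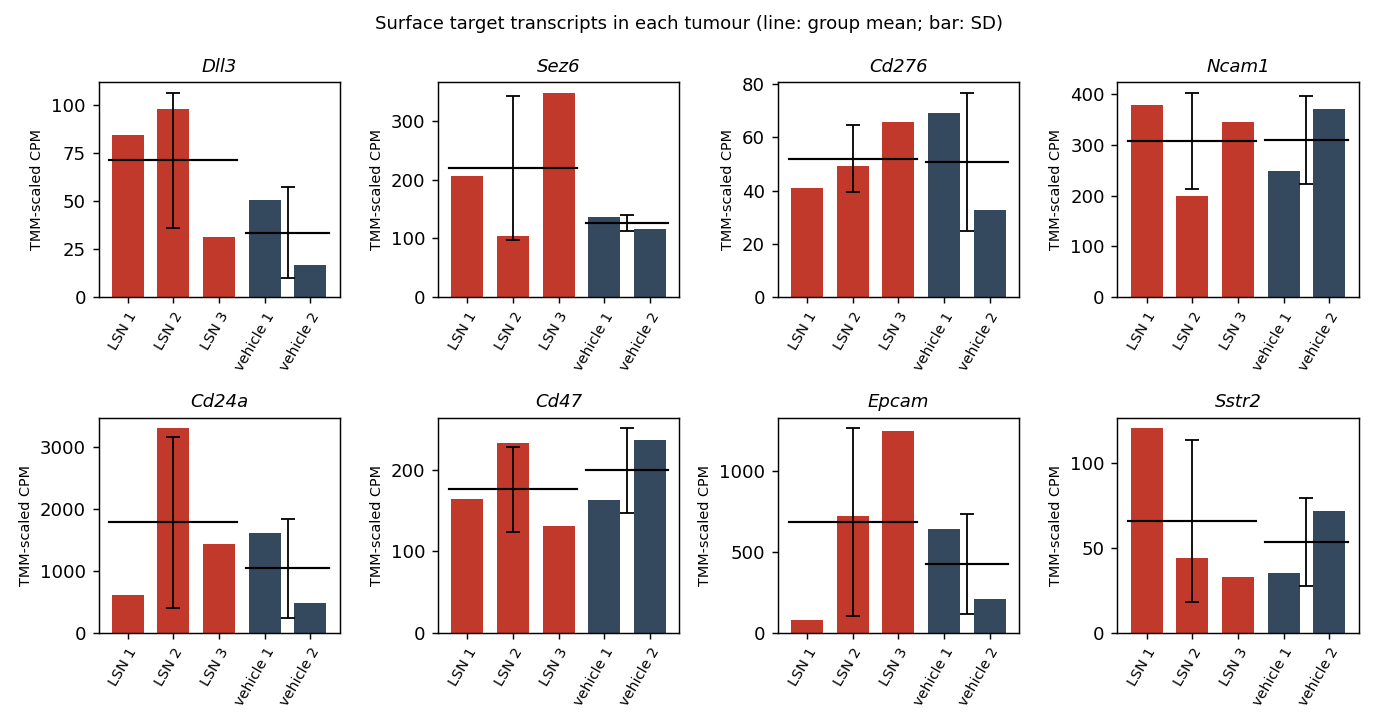
Bars are TMM-scaled CPM of each gene in each tumour, with lines for group means and error bars for SD (LSN n = 3, vehicle n = 2). In each panel the LSN and vehicle bars overlap, and the highest and lowest LSN tumours differ more than the group means do.

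Epcam (chromosome 17, 87635979 to 87651106) had the widest range of the 8 genes. It was at 80.1, 722 and 1241 CPM in LSN replicates 1, 2 and 3, against 640 and 206 CPM in vehicle replicates 1 and 2. LSN replicate 1 and vehicle replicate 2 were low, and the highest value was 15.5 times the lowest, both of them in LSN tumours. It averaged 681 ± 582 CPM in LSN tumours (SD, n = 3) and 423 ± 307 CPM in vehicle tumours (SD, n = 2), and the log2 fold change of 0.69 ± 1.10 (SE; edgeR, adjusted p = 0.9996) turned to -0.091 without LSN replicate 3. Its biological coefficient of variation in the edgeR fit was 0.789, higher than that of 94.4% of 216 genes within 1.5-fold of its mean level, whose median was 0.305. Normal lung epithelium markers summed to 1969, 367 and 1214 CPM in LSN replicates 1, 2 and 3, against 6960 and 8713 CPM in vehicle replicates 1 and 2. The part of those cells in the values of Epcam was not tested.

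Some of the EPCAM partners were low in the same tumours as Epcam. Cdh1, the gene of E-cadherin, was at 33.7, 524 and 886 CPM in LSN tumours, against 463 and 118 CPM in vehicle tumours. Cldn7, a claudin that binds EPCAM, was at 4.69, 185 and 161 CPM, against 77.8 and 15.2 CPM, and Esrp1, a splicing regulator of epithelial cells, at 3.04, 252 and 423 CPM, against 172 and 8.71 CPM. All 3 were lowest in LSN replicate 1 and second lowest in vehicle replicate 2, as Epcam was, and were picked once their values were known. Cldn3 and Cldn4, other claudins picked in the same way, were also lowest in LSN replicate 1, at 28.3 and 3.37 CPM. They were second lowest in vehicle replicate 2, at 36.1 and 11.4 CPM. In LSN replicate 3, where Epcam was highest, they were at 59.6 and 24.5 CPM, against 115 and 86.8 CPM in vehicle replicate 1. The profiles nearest to Epcam by the fixed measure were Esyt3 (0.13), Tspan1 (0.20) and Scin (0.25). Tspan1, a tetraspanin of epithelia, was at 8.84, 85.6 and 110 CPM in LSN tumours, against 82.0 and 26.5 CPM in vehicle tumours.

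Of the 8 EPCAM partners, 0 passed in edgeR in either direction and 4 were above 0, with a median log2 fold change of -0.14. Tspan8, a tetraspanin found in complexes with EPCAM, was at 5.58, 5.25 and 2.49 CPM in LSN tumours, against 33.3 and 22.1 CPM in vehicle tumours. All LSN tumours lay below both vehicle tumours, and the log2 fold change was -2.64 ± 0.51 (SE; edgeR, adjusted p = 0.9996; DESeq2, adjusted p = 0.00196). Normal lung epithelium markers were lower in the same LSN tumours, and their part was not tested.

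Cd24a (chromosome 10, 43578284 to 43584265) had the highest mean level per gene length of the 8 transcripts. It was at 600, 3308 and 1438 CPM in LSN replicates 1, 2 and 3, against 1608 and 475 CPM in vehicle replicates 1 and 2. The same 2 tumours as for Epcam, LSN replicate 1 and vehicle replicate 2, were low, but the highest was LSN replicate 2. The log2 fold change was 0.77 ± 0.86 (SE; edgeR, adjusted p = 0.9996), was -0.034 without LSN replicate 2 and reached 1.92 without vehicle replicate 1. Cd24a is also expressed in red cell precursors, B cells and neutrophils. Red blood cell markers summed to 11.0 CPM in LSN replicate 2, the tumour with the most Cd24a, to 294 and 328 CPM in LSN replicates 1 and 3, and to 666 and 780 CPM in vehicle tumours. B and plasma cell markers summed to 35.6 to 152 CPM in LSN tumours and 98.0 and 270 CPM in vehicle tumours, and neutrophil markers to at most 27.5 CPM, with Mpo and Ly6g at 0 in all 5 tumours. Profiles near to Cd24a by the same measure were those of Frrs1 (0.12) and Ggact (0.14).

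Cd47 (chromosome 16, 49800533 to 49915010) had the smallest spread. It was at 164, 234 and 131 CPM in LSN replicates 1, 2 and 3, against 163 and 236 CPM in vehicle replicates 1 and 2, with LSN replicate 3 lowest. The log2 fold change was -0.18 ± 0.33 (SE; edgeR, adjusted p = 0.9996), -0.44 without LSN replicate 2 and 0.12 without vehicle replicate 2. Of 8 genes of CD47 and CD24 signalling to phagocytes, 0 passed in either direction, 3 were above 0 and the median log2 fold change was -0.05. Sirpa, the receptor of CD47 on macrophages, was at 136, 101 and 63.4 CPM in LSN tumours, against 51.3 and 161 CPM in vehicle tumours, and was picked once its values were known. Macrophage and monocyte markers summed to 386 to 569 CPM in LSN tumours and to 225 and 532 CPM in vehicle tumours, lowest in vehicle replicate 1, where Sirpa was lowest as well. Qpctl, the enzyme that modifies CD47 for binding to SIRPA, was at 25.2, 40.1 and 30.6 CPM in LSN tumours, against 26.9 and 16.7 CPM in vehicle tumours. Siglecg, a mouse receptor for CD24, was at most 4.86 CPM. Calr and Ptpn11, the most abundant genes of this list, had log2 fold changes of -0.02 and 0.14.

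Cd276 (chromosome 9, 58524298 to 58555437, minus strand) was the least abundant of the 8 per gene length. It was at 40.9, 49.4 and 65.6 CPM in LSN replicates 1, 2 and 3, against 69.2 and 32.5 CPM in vehicle replicates 1 and 2. The vehicle tumours held the highest and the lowest value, and the LSN tumours lay between them. The log2 fold change was 0.03 ± 0.42 (SE; edgeR, adjusted p = 0.9996), and it was -0.066 with total counts in place of TMM, 0.68 without vehicle replicate 1 and -0.41 without vehicle replicate 2. Genes of chromosome 9 were also unequal among tumours, with medians of -0.17, -0.12 and 0.32 in LSN replicates 1, 2 and 3, against 0.13 and -0.14 in vehicle replicates 1 and 2, each relative to the mean of the gene on the log2 scale. Cd276 was likewise highest in vehicle replicate 1 and LSN replicate 3, whereas Ncam1, on the same chromosome, was not, and the part of the chromosome was not tested.

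Of the 11 genes of the B7 family and its receptors, 0 passed in either direction and 7 were above 0, with a median log2 fold change of 0.32. Cd274, the gene of PD-L1, and Vtcn1, the gene of B7-H4, had unadjusted p-values under 0.05 by edgeR and adjusted p-values of 0.9996. Vtcn1 was at 1.44, 0.536 and 0.582 CPM in LSN tumours, against 5.06 and 2.29 CPM in vehicle tumours. Cd274 was above both vehicle tumours in each LSN tumour, at 44.0 to 54.1 CPM against 22.1 and 32.2 CPM. The groups thus overlapped for Cd276 and did not for Cd274. In this list, 2 of 11 genes lay above both vehicle tumours in every LSN tumour, beside 8.48% of all genes. Another 2 lay below both, beside 10.4% of all genes.

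Levels per gene length put Cd24a first, at 1886 ± 1353 TPM over the 5 tumours (SD, n = 5), and Epcam second at 921 ± 703 TPM. Cd24a exceeded Epcam in 4 of 5 tumours, and Epcam exceeded Ncam1 in 4 of 5. The exceptions were LSN replicate 3, where Epcam was highest at 1910 TPM, and LSN replicate 1, where Epcam was at 143 TPM, behind Cd24a, Sstr2 and Ncam1. Below them came Ncam1 at 121 ± 35.6 TPM, Sez6 at 105 ± 54.4, Cd47 at 99.7 ± 25.1, Sstr2 at 98.3 ± 65.8, Dll3 at 66.4 ± 40.7 and Cd276 at 47.2 ± 13.8. Each neighbouring pair in this order was closer in mean TPM than the larger SD of the pair, apart from Epcam and Ncam1. Dll3 was the lowest of the 8 in LSN replicate 3 and vehicle replicate 2, and it reached from the 63.9th percentile of protein-coding genes in vehicle replicate 2 to the 92.6th in LSN replicate 2. Cd24a was above the 99th percentile in every tumour and made up 41.9 to 71.9% of the summed TPM of the 8 genes.

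**Figure D3:**
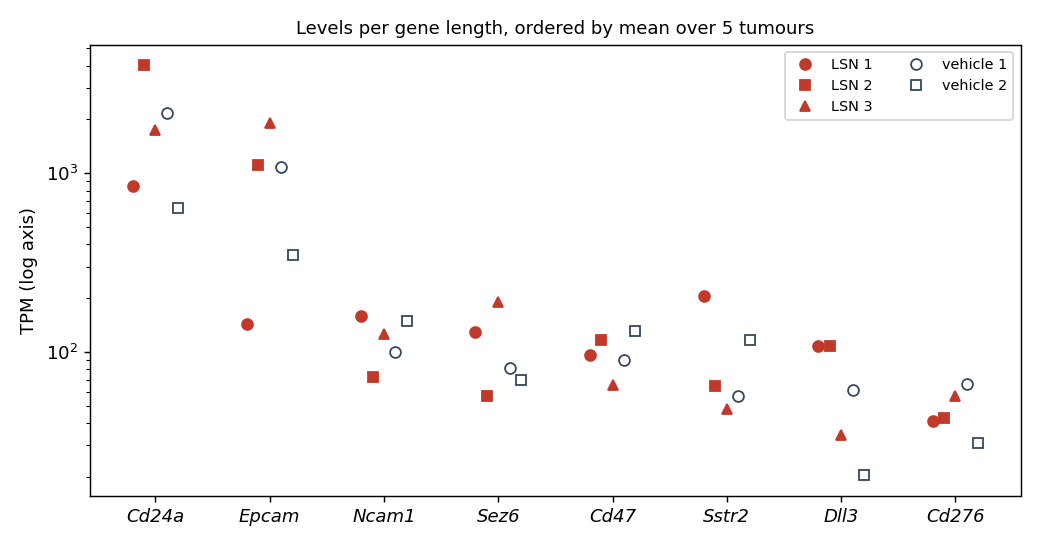
Points are TPM of each gene in each tumour on a log axis, with filled symbols for LSN and open symbols for vehicle tumours. Cd24a and Epcam lie highest in most tumours, and the other 6 genes overlap between 20.4 and 206 TPM.

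Other surface molecules under study as targets in lung cancer were mostly lower with LSN on average. Of 28 listed genes 25 passed the count filter, 6 had a log2 fold change above 0 and 19 below, the median was -0.53, and 0 passed in either direction. Every LSN tumour was below both vehicle tumours for 8 of the 25, a share of 32.0% beside 10.4% of all genes, and above both for 0. Slc34a2, a phosphate transporter of alveolar type 2 cells, was at 85.5, 26.0 and 63.2 CPM in LSN tumours, against 146 and 537 CPM in vehicle tumours. Gpc3, a glypican, was at 29.7, 6.70 and 6.14 CPM, against 53.4 and 66.3 CPM, Met at 8.73, 3.16 and 5.77 CPM, against 12.2 and 21.8 CPM, and Erbb2 at 4.80, 1.55 and 2.12 CPM, against 7.96 and 12.7 CPM. These 4 genes had unadjusted p-values under 0.05 by edgeR and adjusted p-values of 0.9996. The sum of the normal lung epithelium markers was also lower in every LSN tumour, as were 9 of 10 endothelial markers, and the part of those cells was not tested.

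Several enzymes that build surface glycans were unequal between tumours of 1 group. Fut1, a fucosyltransferase of the fucosyl-GM1 pathway, was at 0.331, 29.2 and 29.0 CPM in LSN replicates 1, 2 and 3, against 27.8 and 0.614 CPM in vehicle replicates 1 and 2. St8sia1, the GD3 synthase upstream of the ganglioside GD2, was at 31.1, 0.107 and 3.02 CPM, against 4.89 and 32.4 CPM. LSN replicate 1 and vehicle replicate 2, the tumours low in Epcam and Cd24a and high in Sstr2, were thus the lowest in Fut1 and the highest in St8sia1. Fut1 and St8sia1 were picked once their values were known, and the 2 tumours were not tested as a group, since they were picked by the values themselves.

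**Figure D4:**
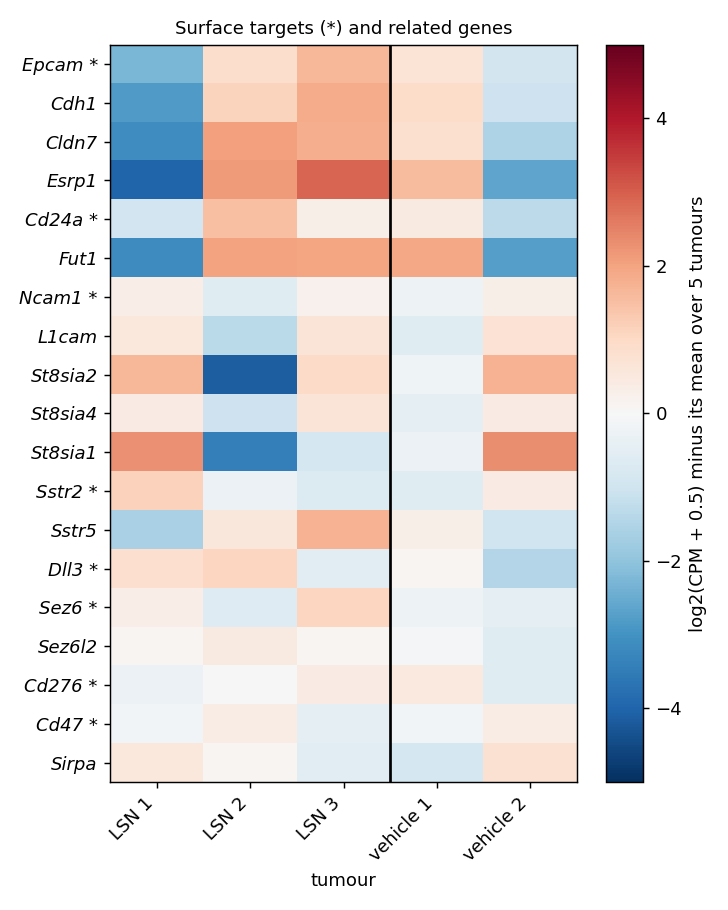
Colours show log2(CPM + 0.5) of each gene minus its mean over the 5 tumours. LSN tumours are left of the line, and the 8 targets are starred. The related genes were picked for the figure once their values were known, Sez6l2 and Sstr5 from among those the text names by rule. Epcam, Cdh1, Cldn7, Esrp1, Cd24a and Fut1 are low in LSN 1 and vehicle 2, where St8sia1 and Sstr2 are high.

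Red blood cell markers were also lower, for 5 of 6 genes in every LSN tumour, beside 10.4% of all genes. Among them Alas2 differed little, at 8.63 CPM in LSN replicate 3 against 8.71 CPM in vehicle replicate 1. The sums of the other marker lists below overlapped between the groups. Neuroendocrine markers summed to 5375, 9096 and 5679 CPM in LSN tumours, against 7396 and 2648 CPM in vehicle tumours, lowest in vehicle replicate 2, where Dll3 was lowest as well. Fibroblast and smooth muscle markers summed to 440 to 842 CPM in LSN tumours and 756 and 1533 CPM in vehicle tumours, T and NK cell markers to 4.07 to 21.8 CPM and 7.80 and 20.5 CPM, muscle markers to 35.0 to 176 CPM and 48.1 and 133 CPM, and peripheral nerve markers to 193 to 353 CPM and 260 and 286 CPM. Endothelial markers summed to 182 to 674 CPM in LSN tumours and 552 and 698 CPM in vehicle tumours.

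**Figure D5:**
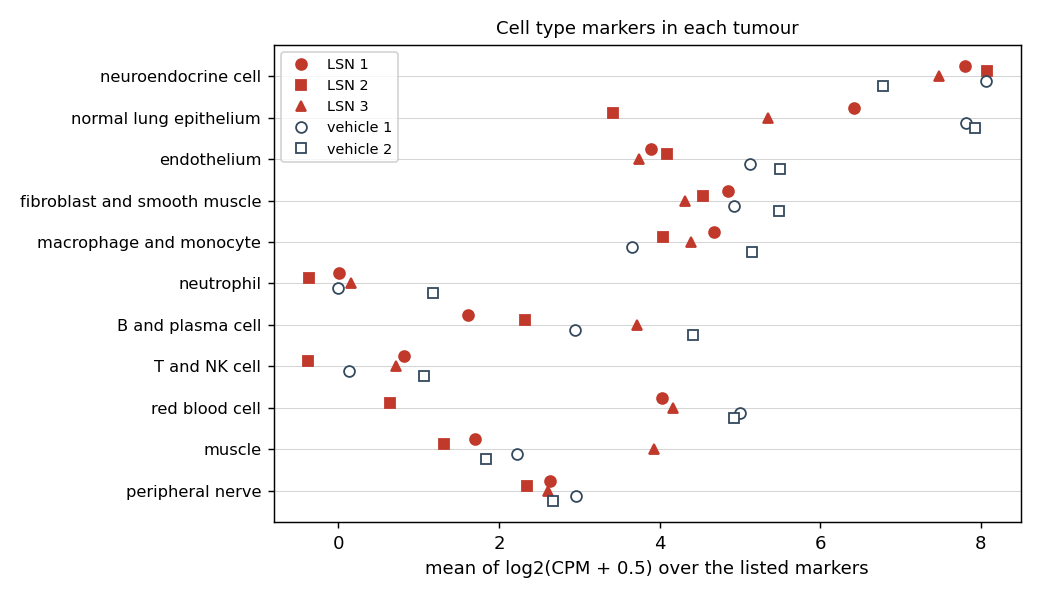
Points are the mean of log2(CPM + 0.5) over each list of cell type markers, with filled symbols for LSN and open symbols for vehicle tumours. Normal lung epithelium, endothelium, red blood cell, fibroblast and smooth muscle, and peripheral nerve markers lie lower in every LSN tumour, and the other lists overlap between the groups. The gap is small for fibroblast and smooth muscle markers (4.85 in LSN 1, 4.93 in vehicle 1). It is also small for peripheral nerve markers (2.64 in LSN 1, 2.68 in vehicle 2), and the summed CPM of both lists overlap.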

How the data were processed

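RNA-seq of 5 mouse lung tumours was analysed, 3 labelled LSN and 2 labelled vehicle. Per the labels' protocols, libraries were non-stranded, reads were mapped to mm10 with STAR and differential expression was computed with DESeq2; for the counting program and annotation, the sources used here name none. The authors deposited raw counts per gene with gene lengths. Total counts were 17439049 to 19766604, and a floor of 3 counts was 0.159 to 0.167 CPM, which covers counting error only. LSN was compared with vehicle in edgeR 4.0.16 (R 4.3.3; robust quasi-likelihood test, TMM, filterByExpr at counts of 10 per sample and 15 in total) across 17906 genes, with Benjamini-Hochberg adjustment. The standard error is the log2 fold change divided by the square root of F, and 95% intervals use the t distribution with the degrees of freedom of the fit. TPM used the deposited lengths. With 3 tumours against 2, an exact permutation test can reach no p under 0.1. The labels name no batch and do not say that tumours came from separate animals, so p-values reflect only the spread among these tumours, which may be technical.

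The 8 genes, the 8 lists of related genes and the 11 marker lists were chosen with earlier results of these data known. Of each related list the text names every gene at an unadjusted edgeR p under 0.05 with at least 1 CPM, or else the 2 with the smallest p and the 2 most abundant, and for targets spanning at least 4-fold the 3 genes with the nearest profile. Others are said to have been picked later, and a few genes taken by this rule are not reported here. Scripts were tested on simulated data. Alternatives were DESeq2 1.42.0, limma-voom (limma 3.58.1), RLE scaling, total counts, 2 other filters, a fit that was not robust, other gene lengths and leaving out each tumour.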

Additional observations from a re-analysis of the deposited data

How the results depend on the processing

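None of the 8 genes passed an adjusted p of 0.05 under any of the 12 alternative fits. DESeq2 called 100 genes in all and 1 of the related genes, Tspan8, where edgeR called 0 of each, with 764 genes at an unadjusted p under 0.05. limma-voom also called 0, with 858. Dll3 and Sez6 kept a positive log2 fold change throughout, at 0.50 to 2.09 and 0.30 to 1.13 when each tumour was left out in turn. The other 6 changed sign without some tumour, with ranges of -0.0343 to 1.92 for Cd24a, -0.41 to 0.68 for Cd276, -0.44 to 0.12 for Cd47, -0.0909 to 1.74 for Epcam, -0.26 to 0.31 for Ncam1 and -0.49 to 0.91 for Sstr2. Cd276 was also at -0.0657 with total counts without TMM. With gene lengths from GENCODE M21, mean TPM of all 8 genes moved by less than the SD between tumours. No paired analysis was possible because the labels give each tumour its own number and share none between the groups. With 2 vehicle tumours, the intervals were wide, and sequencing depth was not varied.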
